A study of Rattus norvegicus with 9 samples.

Results

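Tight junctions seal the space between neighbouring epithelial cells, and in the vestibular epithelium they separate the potassium-rich endolymph above the hair cells (HCs) from the fluid around their bases. The genes described here encode 9 proteins of these seals: the claudins Cldn9, Cldn11, Cldn12 and Cldn14, the MARVEL-domain proteins occludin (Ocln) and tricellulin (Marveld2), the angulins Ildr1 and Lsr, and the scaffold protein ZO-1 (Tjp1). They were chosen by name, with no threshold on their values, and each symbol matched a single entry among the 32883 genes of the deposited table. All 9 were among the 15517 genes with enough counts to be tested. With edgeR, none of the 9 was a differentially expressed gene (DEG) after 3 or 7 weeks of IDPN, whereas some other claudins were DEGs with higher levels. DESeq2 called 1 of the 9, Cldn11, at 7 weeks.

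Claudins form the strands that close the gap between adjacent cells, and different claudins make these strands tighter or more permeable to ions. Occludin lies along the same strands. At corners where 3 cells meet, an angulin recruits tricellulin to close the remaining channel, and ZO-1 ties the membrane proteins to actin. Loss of Cldn9, Cldn14, Marveld2 or Ildr1 is known to cause deafness in mice, and Cldn11 is also known as the claudin of the tight junctions within oligodendrocyte myelin.

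The rats were male Long-Evans animals. IDPN rats took 20 mM of the ototoxic nitrile 3,3′-iminodipropionitrile in their drinking water, in one group (IDPN-3wk) over 3 weeks and in another (IDPN-7wk) over 7 weeks, and the water of Control rats had none. The ages of these rats are not given in the sources used here, and the Control group combined rats collected at both times, so Control rats are not matched in age to either IDPN group. Each library came from 1 rat, by SMARTseq2 on RNA from its 2 utricles and 6 cristae pooled, with 3 libraries per group. All libraries carry the same batch label. A code in the sample titles, whose meaning is not given, is common to the 3 Control rats and to no IDPN rat, so code and exposure cannot be told apart. IDPN-3wk replicates 2 and 3 share another code, IDPN-7wk replicates 2 and 3 a further one, and replicate 1 of IDPN-3wk has its code in common with replicate 1 of IDPN-7wk.

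Library totals ran from 31100118 to 46018385 counts, so that 3 counts corresponded to 0.0611 to 0.101 CPM (counts scaled to a common library size), and the rarest junction gene, Cldn14, had at least 359 counts in every library. Counting error was therefore small beside the differences between rats, although PCR copies without molecular identifiers make it a lower limit. A lower number of genes, 15387 to 15498 expected at the depth of the smallest library, was detected in 1 Control (replicate 3) and 2 IDPN-3wk libraries (replicates 1 and 2), against 16834 to 17312 in the other 6 libraries. Differences in mean log2 CPM within these library sets are given for each gene below. At 3 weeks they set 2 IDPN-3wk rats against 1 Control rat in the smaller set, and 1 IDPN-3wk rat against 2 Control rats in the larger. They therefore rest on single rats and have no spread. HC markers summed to 2934 to 3392 CPM in Control, 1468 to 1850 CPM in IDPN-3wk and 1458 to 1677 CPM in IDPN-7wk libraries. Of the 15 HC markers, 13 had fitted values below Control at 3 weeks and 15 at 7 weeks. By the rule for DEGs given below, 5 (33.3%) were lower at 3 weeks and 9 (60.0%) at 7 weeks. Of all genes tested, 1.65% and 5.13% were DEGs. Supporting cell markers summed to 13227 to 13552, 8088 to 9910 and 5734 to 7981 CPM. The largest part of these sums was Otog, with means of 8473, 4674 and 3533 CPM. Of the 10 supporting cell markers, 1 (10.0%) was a DEG at 3 weeks and 3 (30.0%) at 7 weeks, all lower. At 7 weeks 2 of the 10 had fitted values above Control, and the median log2 fold change was -0.35. From these whole-tissue counts alone, fewer cells of a type and less RNA per cell cannot be told apart. For HCs, the authors counted cells in other rats, after an IDPN exposure longer than 3 weeks and shorter than 7 weeks. From these counts they put HC loss at 3 weeks as very limited. For 7 weeks they called significant loss likely, with no counts given. In other rats at that intermediate time they also measured lower RNA or protein label of several HC genes within HCs.

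E-boxes are shown first because the repressors of the Snail and Zeb families, known regulators of epithelial junction genes, bind the letters CAGGTG. These letters were searched on both strands, so that CACCTG also counts, in the 250 bases before the start of each gene in RefSeq on the rat build GRCr8. At least 1 match was present in 15.9% of 33469 windows. Among the junction genes, 8 of 9 had a window, and 4 of these 8 held a match, with 1 in Cldn14, 1 in Ildr1, 2 in Ocln and 2 in Lsr. The windows of Cldn11, Cldn12, Marveld2 and Tjp1 had 0 matches. At least 2 matches were found in 1.84% of all windows. Of the other junction genes that were DEGs, 6 had a window and 4 of these held a match. Beside the pair printed below, Cldn6 and Crb3 had 3 matches each, and Magi3 and Pard3b had 0. No link between matches and changes in level was tested. A match describes the letters only. Only windows that overlap no annotated gene are printed, 5′ to 3′ on the gene's strand, with the matches in capitals. This left Cldn11, the gene of the 9 with the largest negative log2 fold change. It also left a pair of other junction genes that rose (Cldn7, with 4 matches, and F11r, with 1). These windows lie at chr2:114149540-114149789 on the minus strand, chr10:55188420-55188669 on the plus strand and chr13:86405979-86406228 on the plus strand.
Cldn11: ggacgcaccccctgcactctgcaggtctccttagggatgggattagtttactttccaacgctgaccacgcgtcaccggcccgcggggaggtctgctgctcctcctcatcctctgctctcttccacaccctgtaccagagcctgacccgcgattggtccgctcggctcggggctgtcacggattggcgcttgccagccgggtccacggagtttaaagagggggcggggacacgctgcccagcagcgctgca
Cldn7: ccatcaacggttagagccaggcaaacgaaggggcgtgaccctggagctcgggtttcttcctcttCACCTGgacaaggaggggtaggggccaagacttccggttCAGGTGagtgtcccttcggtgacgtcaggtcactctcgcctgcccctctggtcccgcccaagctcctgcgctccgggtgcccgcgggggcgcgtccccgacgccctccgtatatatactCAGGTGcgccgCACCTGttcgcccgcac
F11r: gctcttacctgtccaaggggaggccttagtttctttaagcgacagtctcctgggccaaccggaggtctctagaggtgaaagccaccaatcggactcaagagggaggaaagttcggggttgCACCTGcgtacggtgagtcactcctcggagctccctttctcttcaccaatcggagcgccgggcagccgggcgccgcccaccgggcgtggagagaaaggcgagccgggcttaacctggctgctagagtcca

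The levels of the 9 genes were compared between groups as CPM after TMM normalization, with means given as mean ± SD of 3 rats. A DEG had an adjusted p under 0.05 in edgeR's quasi-likelihood test and a fold change above 1.5. With this rule, 0 of the 9 genes were DEGs in the IDPN-3wk rats, where 1.65% of all genes tested were. In the IDPN-7wk rats 0 of 9 were DEGs, against 5.13% of all genes, and between the IDPN groups 0 of 9, against 0.483%. Unadjusted p-values under 0.05 were found for 1, 4 and 2 of the 9 genes in these comparisons, beside 15.8%, 19.3% and 13.8% of all genes. DESeq2 also called 0 of the 9 at 3 weeks and 0 between the IDPN groups, but it called Cldn11 at 7 weeks. The median log2 fold change of the 9 genes was 0.14 at 3 weeks and 0.26 at 7 weeks, beside medians of -0.00 and 0.01 over all genes. Both comparisons used the same Control rats, so their values are not independent.

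**Figure D1:**
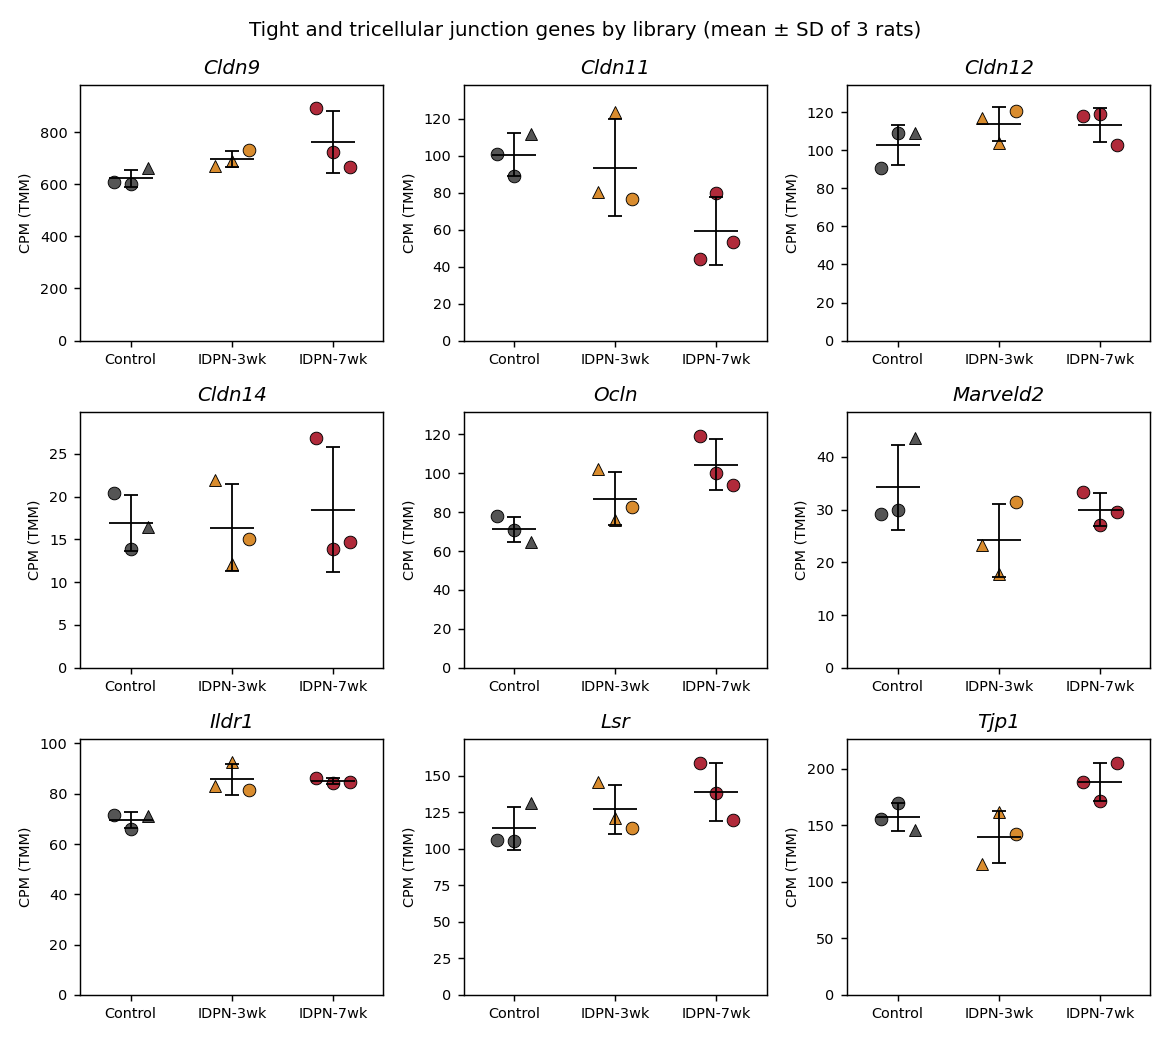
Each panel plots the level of 1 gene in CPM after TMM normalization (linear axis from 0) for the 3 groups, with a point per rat and the mean ± SD of 3 rats. Triangles mark the 3 libraries with fewer detected genes and circles the other 6. The Ocln points of the IDPN-7wk rats (93.8 to 119 CPM) all lie above those of the Control rats (64.8 to 78.0 CPM), and the Cldn11 points of the IDPN-7wk rats (44.2 to 80.0 CPM) all lie below those of the Control rats (89.1 to 112 CPM).

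Of the claudins, Cldn9 (ENSRNOG00000003654), which is known to limit the passage of ions into the fluid around HCs, stood at 609, 599.6 and 661 CPM in the Control rats. Its levels were 669.9, 691 and 731 CPM in the IDPN-3wk rats and 894, 725 and 665 CPM in the IDPN-7wk rats. Every IDPN library was thus above every Control library, by small margins. The log2 fold change was 0.16 (95% interval -0.08 to 0.41, adjusted p = 0.512) at 3 weeks. At 7 weeks it was 0.29 (0.05 to 0.53, adjusted p = 0.173), a 1.22-fold difference. IDPN-7wk replicate 1 carried much of the latter, since the value without it was 0.16. Within the 6 libraries with more detected genes, the differences in log2 CPM were 0.28 and 0.32, and within the other 3 libraries the IDPN-3wk rats differed from the Control rat by 0.04.

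Cldn11 (ENSRNOG00000010263) was the only one of the 9 genes with lower levels in every IDPN-7wk rat than in any Control rat. Control rats had 101, 89.1 and 112 CPM, IDPN-3wk rats 80.6, 124 and 76.5 CPM, and IDPN-7wk rats 44.2, 80.0 and 53.6 CPM. The IDPN-3wk rats overlapped both of the other groups. The log2 fold change at 3 weeks was -0.10 (-0.63 to 0.43, adjusted p = 0.887). At 7 weeks it was -0.76 (-1.30 to -0.23, SE 0.239), or 0.589 of the Control level, with an unadjusted p of 0.00958 and an adjusted p of 0.102. Over 16 alternatives the 7-week value ran from -1.04 to -0.59. DESeq2 placed it past the DEG thresholds (adjusted p = 0.0257), as did the fit without IDPN-7wk replicate 2 (-1.04, adjusted p = 0.0381). Within the library sets the 3-week difference was -0.16 in the set with fewer detected genes and -0.31 in the other, where the 7-week difference was -0.72.

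Markers of myelinating cells were also lower in the IDPN-7wk rats. They were not alone, as mean sums were 54.0% of Control for Schwann cell and 57.7% for dark cell markers. For HC and supporting cell markers they were 50.8% and 52.2%. The 9 Schwann cell markers summed to 9682 to 12165 CPM in Control, 7585 to 10354 CPM in IDPN-3wk and 3297 to 6947 CPM in IDPN-7wk libraries. All 9 had fitted values below Control at 7 weeks, with a median log2 fold change of -0.86. As DEGs there were 3 of them (33.3%), beside 5.13% of all genes. IDPN-7wk replicate 1, the library lowest in Cldn11, was also lowest in these markers, but Control replicate 2 and IDPN-3wk replicate 3, each the lowest of its group in Cldn11, had the highest marker sums of their groups (12165 and 10354 CPM). The oligodendrocyte markers Mog, Mobp, Olig1, Olig2 and Opalin together reached at most 0.761 CPM in any library. The sixth gene of that list, Mal, also known from Schwann cells and epithelia, averaged 359.6 ± 53.4 CPM in Control and 255 ± 47.5 CPM in IDPN-7wk rats (log2 fold change -0.49, adjusted p = 0.103). Cldn19, known as a claudin of Schwann cell myelin and named here after its values were seen, averaged 58.0 ± 12.9 CPM in Control and 36.0 ± 14.3 CPM in IDPN-7wk rats (log2 fold change -0.69, adjusted p = 0.212). The part of these cells in the Cldn11 levels was not tested.

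Cldn12 (ENSRNOG00000039862), a claudin linked to calcium passage in the gut, was the steadiest of the 9 genes, with a coefficient of variation of 8.87% over the 9 libraries. Its levels were 90.7, 109 and 109 CPM in Control, 117, 104 and 121 CPM in IDPN-3wk and 118, 119 and 103 CPM in IDPN-7wk rats. The groups overlapped throughout. The log2 fold changes were 0.14 at both times, with intervals of -0.11 to 0.39, so that a change of 1.5-fold lies outside either interval. The 3-week difference was 0.01 in the library set with fewer detected genes and 0.28 in the other.

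Cldn14 (ENSRNOG00000001691), a claudin of the apical junctions of HCs and supporting cells, had the lowest counts and the widest intervals. Control rats had 20.4, 13.9 and 16.4 CPM, IDPN-3wk rats 22.0, 12.1 and 15.0 CPM, and IDPN-7wk rats 26.9, 13.9 and 14.7 CPM. One library per group stood above the other two, and the groups overlapped. The log2 fold changes were -0.05 (-0.74 to 0.65) and 0.13 (-0.56 to 0.83), so a rise of 1.5-fold lies inside both intervals. The sign at 7 weeks rested on IDPN-7wk replicate 1, with -0.24 in its absence, and the sign at 3 weeks turned without Control replicate 1 (0.11) or without IDPN-3wk replicate 2 or 3 (0.13 and 0.01). Within the library sets the 3-week difference was -0.01 and -0.16.

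Occludin had the largest positive log2 fold change of the 9 genes at 7 weeks. Ocln (ENSRNOG00000018297) was at 78.0, 70.6 and 64.8 CPM in Control rats, 102, 76.1 and 82.8 CPM in IDPN-3wk rats, and 119, 100.1 and 93.8 CPM in IDPN-7wk rats. The lowest IDPN-7wk rat was above the highest Control rat, and the IDPN-3wk rats overlapped both groups. At 3 weeks the log2 fold change was 0.29 (-0.02 to 0.61, adjusted p = 0.355). At 7 weeks it was 0.55 (0.24 to 0.87, SE 0.141), a 1.47-fold difference with an adjusted p of 0.0483. This passed the p threshold, as 6.09% of all genes did, but not the fold threshold. The adjusted p was above 0.05 without any single Control or IDPN-7wk library, without IDPN-3wk replicate 3, and with the library set as a covariate, and reached 0.195 without IDPN-7wk replicate 1. The log2 fold change kept its sign in all 16 alternatives, from 0.45 to 0.62. The 3-week difference was 0.45 in the library set with fewer detected genes and 0.16 in the other, where the 7-week difference was 0.48.

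Since edgeR called none of the 9 genes, Ocln, with the smallest p against Control, was also compared with every gene tested for likeness of pattern. The 3 genes with the highest Pearson correlation with Ocln in log2 CPM over the 9 libraries were Krt23, an epithelial keratin (r = 0.983), Lxn, which encodes the carboxypeptidase inhibitor latexin (r = 0.972), and Mospd1 (r = 0.971). These are the extremes of 15517 genes over 9 libraries, which share their groups.

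The difference in tricellulin between IDPN-3wk and Control rats was not the same in the library sets, where each value rests on a single rat of 1 group. Marveld2 (ENSRNOG00000052167) was at 29.2, 30.0 and 43.6 CPM in Control, 23.3, 17.7 and 31.5 CPM in IDPN-3wk, and 33.3, 27.0 and 29.6 CPM in IDPN-7wk rats. The highest Control library and the lowest pair of IDPN-3wk libraries were the 3 libraries with fewer detected genes. Pooled over all libraries, the log2 fold change was -0.50 (-1.03 to 0.02, adjusted p = 0.334) at 3 weeks and -0.20 (-0.72 to 0.32, adjusted p = 0.738) at 7 weeks. Among the 3 libraries with fewer detected genes, the IDPN-3wk rats were lower by a log2 difference of -1.10, but in the other set the difference was 0.09. Without the 3 libraries, the fitted values turned to 0.09 at 3 weeks and 0.01 at 7 weeks. Ocln and Marveld2 are neighbours on rat chromosome 2, with no protein-coding gene between them in RefSeq.

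**Figure D2:**
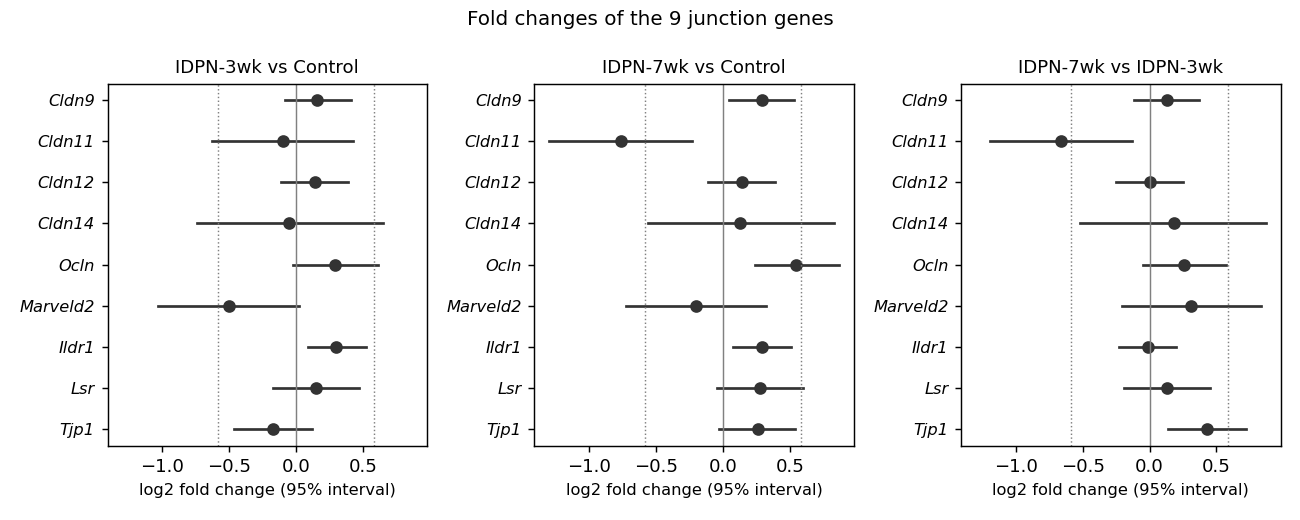
Log2 fold changes (horizontal axis) of the 9 junction genes in the 3 comparisons, with points for the fitted values and lines for their 95% intervals from the edgeR fit. Dotted lines mark a 1.5-fold change either way and no gene is drawn in the red used for DEGs. At 7 weeks the intervals of Cldn9, Ocln and Ildr1 lie above 0 and that of Cldn11 lies below 0.

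Of the angulins, Ildr1 (ENSRNOG00000002289) had the smallest standard error of the 9 genes in each comparison. The Control rats had 71.6, 65.9 and 71.3 CPM, against 83.0, 92.8 and 81.5 CPM in IDPN-3wk and 86.4, 84.3 and 84.6 CPM in IDPN-7wk rats. Every IDPN rat was above every Control rat. The log2 fold change was 0.30 (0.09 to 0.52, unadjusted p = 0.0107, adjusted p = 0.164) at 3 weeks and 0.29 (0.08 to 0.51, unadjusted p = 0.0129, adjusted p = 0.121) at 7 weeks, or 1.23-fold and 1.22-fold. Within the library sets the 3-week difference was 0.30 and 0.25. DESeq2 gave adjusted p-values of 0.0194 and 0.0202 for these changes, which stayed under 1.5-fold. Between the IDPN groups the difference was -0.01 (-0.23 to 0.20).

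Lsr (ENSRNOG00000021053), the angulin of most epithelia, had levels of 106, 105 and 131 CPM in Control, 146, 121 and 114 CPM in IDPN-3wk and 159, 138 and 119.5 CPM in IDPN-7wk rats. The groups overlapped, because Control replicate 3 was above IDPN-3wk replicates 2 and 3 and IDPN-7wk replicate 3. The log2 fold change was 0.15 (-0.17 to 0.47, adjusted p = 0.664) at 3 weeks and 0.28 (-0.04 to 0.60, adjusted p = 0.321) at 7 weeks. Within the library sets the 3-week difference was 0.02 and 0.11.

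The scaffold gene Tjp1 (ENSRNOG00000011077) was the gene that separated the IDPN groups from each other. Its levels were 156, 170.2 and 146 CPM in Control, 116, 162 and 142 CPM in IDPN-3wk, and 188, 172 and 205 CPM in IDPN-7wk rats. All IDPN-7wk rats were above all rats of the other groups, which overlapped each other. Against Control, the log2 fold change was -0.17 (-0.46 to 0.12, adjusted p = 0.573) at 3 weeks and 0.26 (-0.03 to 0.54, adjusted p = 0.320) at 7 weeks. Between IDPN-7wk and IDPN-3wk rats it was 0.43 (0.14 to 0.72, SE 0.129), a 1.35-fold difference with an unadjusted p of 0.00786 and an adjusted p of 0.200. Within the library sets the 3-week difference from Control was -0.10 and -0.20.

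Separation of the groups was itself frequent among all genes. At 3 weeks, 2 of the 9 genes (Cldn9 and Ildr1) had groups that did not overlap, beside 19.6% of all genes tested. At 7 weeks there were 5 (Cldn9, Ocln, Ildr1 and Tjp1 higher, and Cldn11 lower), beside 34.3%. Between the IDPN groups there was 1 (Tjp1), beside 21.0%. Summed over the 9 genes, the level was 1253 to 1355 CPM in Control, 1359 to 1400 CPM in IDPN-3wk and 1369 to 1669 CPM in IDPN-7wk libraries. Cldn9 was the largest single part of these sums in CPM, and no gene lengths were used, so levels are not compared between genes. IDPN-7wk replicate 1 had the highest level of Cldn9, Cldn14, Ocln, Marveld2, Ildr1 and Lsr of its group and the lowest of Cldn11, and it was also the library with the lowest supporting cell (5734 CPM) and Schwann cell sums.

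The other genes of the junctional complex were taken from lists by function, 80 genes of which 69 were tested. At 3 weeks 2 of the 69 (2.90%) were DEGs, both higher (0.438% of all genes were DEGs with higher levels). At 7 weeks 10 (14.5%) were DEGs, 7 higher and 3 lower, beside 2.00% and 3.13% of all genes. Between the IDPN groups 0 were DEGs by edgeR, with 19 at an unadjusted p under 0.05 (13.8% of all genes were), and DESeq2 called 4. The median log2 fold change of the 69 genes was 0.09 at 3 weeks and 0.04 at 7 weeks. Leaving out 1 library moved the count at 3 weeks between 0 (without Control replicate 1 or 2) and 4 (without IDPN-3wk replicate 3). The count at 7 weeks was 4 without IDPN-7wk replicate 1 and 6 without Control replicate 2.

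The claudins that were DEGs in edgeR were outside the group of 9. Of the other claudins, 15 were tested. As DEGs with higher levels there were 2 at 3 weeks (13.3%) and 4 at 7 weeks (26.7%), and 0 were DEGs with lower levels. Of all genes tested, 0.438% and 2.00% were DEGs with higher levels at these times. Fitted values were above Control for 12 of the 15 and below it for 3, at each time. Their medians were 0.45 and 0.44 on the log2 scale, and their summed levels were 769 to 843 CPM in Control, 999.9 to 1143 CPM in IDPN-3wk and 1069 to 1203 CPM in IDPN-7wk libraries. Another 8 of these claudins were in the table but had too few counts to be tested.

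Cldn4, a sealing claudin of many epithelia, was at 89.8, 81.1 and 104 CPM in Control, 153, 168 and 136 CPM in IDPN-3wk and 217, 237 and 194 CPM in IDPN-7wk rats. The 3 groups did not overlap. The log2 fold change was 0.73 (adjusted p = 0.0187) at 3 weeks and 1.24 (SE 0.126, adjusted p = 0.000477), or 2.36-fold, at 7 weeks. The 3-week call was lost without Control replicate 1 or 2, without IDPN-3wk replicate 2, without the 3 libraries with fewer detected genes, and in a fit of these groups alone, with adjusted p-values of 0.0556 to 0.0876. The 7-week call was kept in all 16 alternatives.

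Cldn6, an embryonic claudin and the gene next to Cldn9 in RefSeq, had the largest fold change of the DEGs among these claudins at 7 weeks. It was at 10.2, 10.1 and 14.0 CPM in Control, 16.1, 27.9 and 33.9 CPM in IDPN-3wk and 62.1, 52.8 and 41.7 CPM in IDPN-7wk rats. Again no group overlapped another. The 7-week change was 4.56-fold (log2 2.19, SE 0.284, adjusted p = 0.00173), and the 3-week change of 2.27-fold had an adjusted p of 0.0671. Its neighbour Cldn9 differed from Control by 1.22-fold at 7 weeks.

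Cldn7, a claudin of the lateral membrane, was at 37.6, 34.8 and 33.1 CPM in Control, 34.3, 34.5 and 43.1 CPM in IDPN-3wk and 68.1, 58.4 and 54.4 CPM in IDPN-7wk rats. It rose 1.72-fold at 7 weeks (log2 0.78, adjusted p = 0.0107), and its call was lost only without IDPN-7wk replicate 1 (adjusted p = 0.0553). Cldn23 rose at both times, from 10.5 ± 3.10 CPM in Control to 27.8 ± 4.79 CPM at 3 weeks (log2 difference 1.40 with an adjusted p of 0.0147) and 25.3 ± 0.880 CPM at 7 weeks (1.26, adjusted p = 0.00926). Its 3-week call was lost without Control replicate 1 or 2 and in a fit of these groups alone, with adjusted p-values of 0.0701 to 0.0732. The most abundant in CPM of these other claudins were Cldn3 and Cldn8. Cldn3 was 1.45-fold and 1.43-fold higher than Control (adjusted p = 0.0445 and 0.0238), under the fold threshold, and Cldn8 was 1.27-fold and 1.23-fold higher (adjusted p = 0.0719 and 0.0652).

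**Figure D3:**
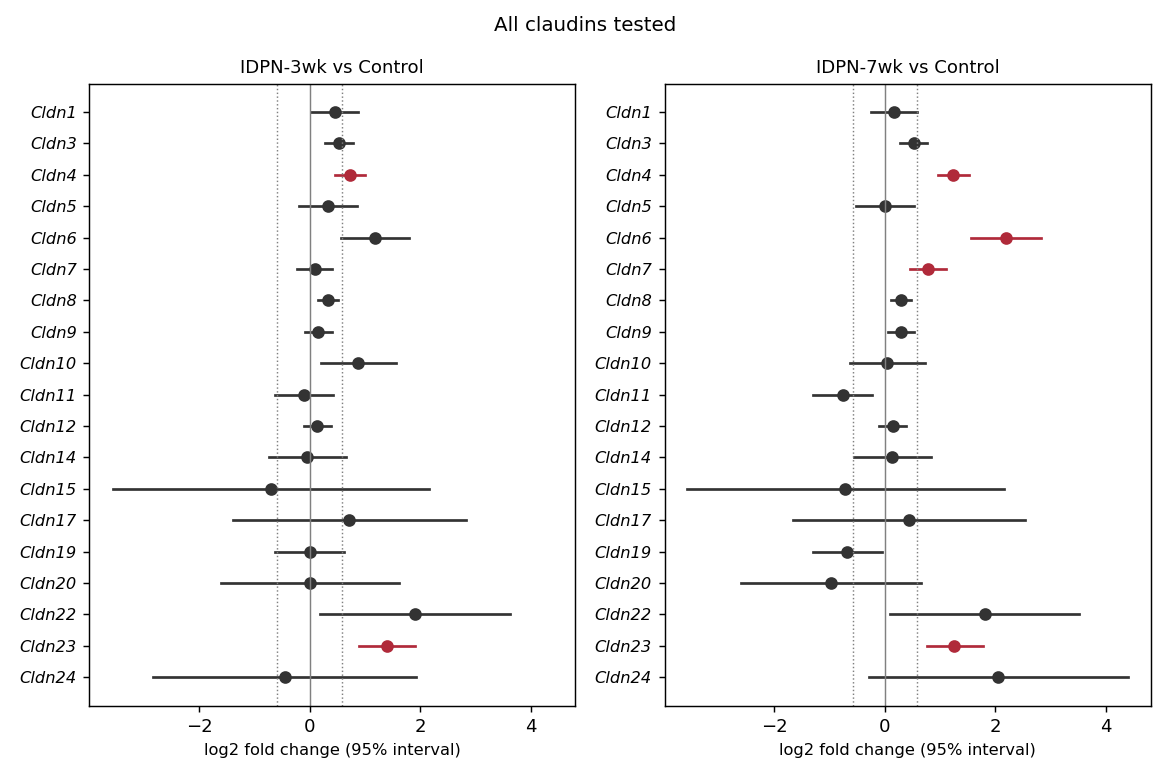
Log2 fold changes (horizontal axis) of the 19 claudins tested at 3 weeks (left) and 7 weeks (right) against Control, with 95% intervals as lines, 1.5-fold changes as dotted lines and DEGs in red. Cldn4 and Cldn23 are red at both times and Cldn6 and Cldn7 at 7 weeks, while Cldn9, Cldn11, Cldn12 and Cldn14 are black.

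Of the other membrane proteins of tight junctions, 10 were tested and 2 were DEGs at 7 weeks (20.0%), beside 5.13% of all genes. F11r, which encodes the adhesion molecule JAM-A, rose from 166 ± 18.6 to 249.7 ± 15.6 CPM, which is 1.5-fold and just past the threshold (log2 0.59, adjusted p = 0.00691). The fold was under the threshold without Control replicate 2 or without IDPN-7wk replicate 1 or 2. Jam3 fell from 149 ± 12.3 to 98.3 ± 15.9 CPM (log2 fold change -0.60, adjusted p = 0.0467), a call lost without any single library of the Control or IDPN-7wk group and without IDPN-3wk replicate 2. Jam2, the most abundant in CPM beside F11r, was 0.693 of Control at 7 weeks (adjusted p = 0.00855). JAM-B and JAM-C, encoded by Jam2 and Jam3, are also known from endothelium and Schwann cells. The 8 endothelial markers summed to 366 to 394 CPM in Control and 337 to 466 CPM in IDPN-7wk libraries, and the Schwann cell sums are given above.

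Among 17 scaffold genes of the cytoplasmic plaque, 1 (5.88%) was a DEG at 7 weeks, near the 5.13% of all genes. It was Magi3, which fell from 17.5 ± 0.734 to 8.46 ± 1.67 CPM (log2 fold change -1.05, adjusted p = 0.0176), with the call lost without Control replicate 1 or 2 or IDPN-7wk replicate 1 or 3 (adjusted p up to 0.0917). Arhgef2, an exchange factor held at junctions by cingulin, differed from Control at 7 weeks by 0.16 on the log2 scale (adjusted p = 0.601).

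Of 14 polarity genes, 2 (14.3%) were DEGs at 7 weeks, in opposite directions, beside 5.13% of all genes. Crb3, the apical Crumbs protein of epithelia, rose from 13.5 ± 0.401 to 26.5 ± 3.06 CPM (log2 fold change 0.97, adjusted p = 0.010), a call lost only without IDPN-7wk replicate 1 (adjusted p = 0.0503). Pard3b, a relative of the polarity scaffold Par3, fell from 11.1 ± 3.44 to 2.42 ± 0.397 CPM (-2.19, adjusted p = 0.0295), and its call was lost without any single Control or IDPN-7wk library. Prkci, the atypical protein kinase C of the Par complex, was 1.37-fold of Control at 7 weeks (adjusted p = 0.0945), and Mpp5, which links Crumbs to its partners, was 0.925 of Control (adjusted p = 0.769).

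In the adherens belt below the tight junctions, 1 of 13 genes (7.69%) was a DEG at 7 weeks, beside 5.13% of all genes. Nectin2, an adhesion molecule of that belt, rose from 63.4 ± 5.38 to 99.8 ± 8.98 CPM (log2 fold change 0.66, adjusted p = 0.00954). Cdh1, which encodes E-cadherin, was 1.38-fold of Control (adjusted p = 0.0376), under the fold threshold, and Jup, which encodes plakoglobin, was 1.23-fold (adjusted p = 0.100).

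Mean sums of HC, supporting cell, dark cell and Schwann cell markers were below Control in both IDPN groups, unlike those of the junction genes. In IDPN-7wk rats the means were 50.8% of Control for HC markers, 52.2% for supporting cell markers, 57.7% for dark cell markers and 54.0% for Schwann cell markers, against 116% for the 9 junction genes and 140.4% for the other claudins. Melanocyte, endothelial and fibroblast markers stood at 89.7%, 107% and 99.5%. Otog was the largest part of the supporting cell sums, and 2 of those 10 markers had fitted values above Control at 7 weeks. Macrophage markers summed to 70.0 to 124 CPM in Control, 53.3 to 144 CPM in IDPN-3wk and 214 to 279 CPM in IDPN-7wk libraries. All 8 were higher in every IDPN-7wk than in any Control library, where 34.3% of all genes had groups that did not overlap. As a DEG at 7 weeks there was 1 of the 8 (12.5%), beside 5.13% of all genes. In IDPN-3wk rats the means were 54.2%, 65.4%, 74.6% and 88.9% of Control for HC, supporting cell, dark cell and Schwann cell markers. They were 107% for the 9 junction genes and 136% for the other claudins. Melanocyte, endothelial, fibroblast and macrophage markers were at 103%, 107%, 109% and 80.8%. The only dark cell marker called at 3 weeks was higher: Bsnd, a subunit of chloride channels named after its values were seen, was at 21.2 ± 4.10 CPM in Control and 53.8 ± 4.59 CPM in IDPN-3wk rats (adjusted p = 0.0128). CPM are shares of a library, and the part of these cell types in the junction gene levels was not tested.

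**Figure D4:**
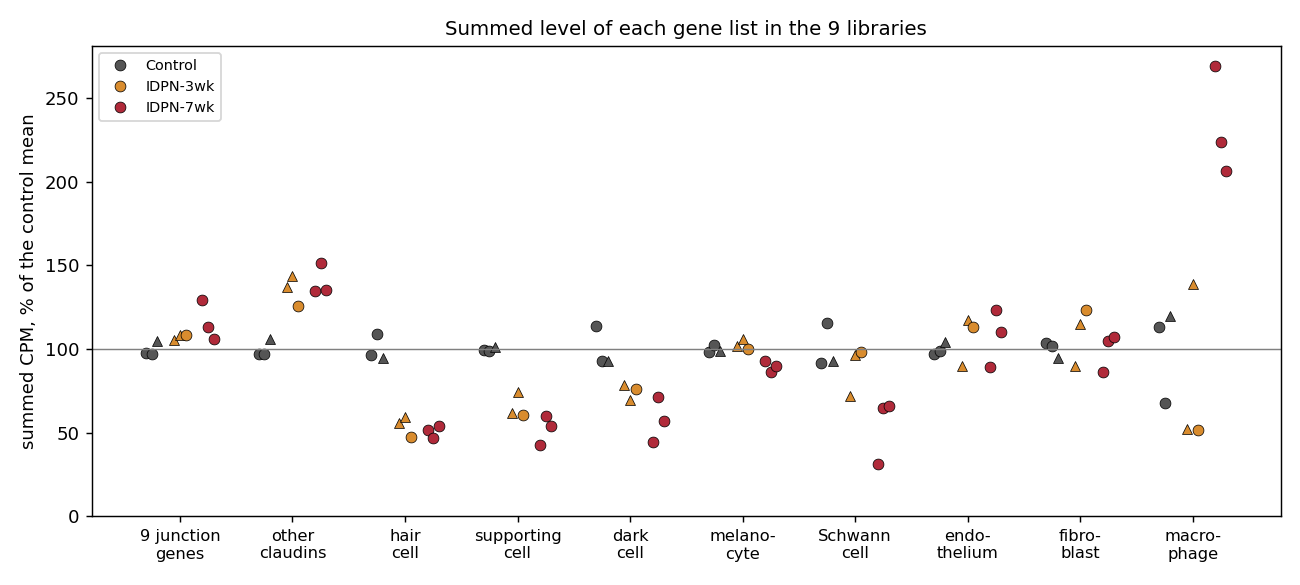
Summed CPM of each gene list in each of the 9 libraries, as a percentage of the Control mean of that list (vertical axis, linear from 0). Points are libraries coloured by group, and triangles are the 3 libraries with fewer detected genes. The 9 junction genes and the other claudins lie at or above the Control mean in the IDPN libraries, and HC, supporting cell and dark cell markers lie below it.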

How the data were processed

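RNA-seq libraries of the vestibular epithelium of 9 rats (3 Control, 3 IDPN-3wk and 3 IDPN-7wk) were compared. Reads had been mapped by the authors to the rat genome Rnor6.0 with STAR 2.5.3a. The authors deposited 1 estimated count per gene (RSEM, version 1.3.0 in the submitters' processing notes, Rnor6.0.92 annotation), given in whole numbers and not normalized. Whether counting used the strand is not given in the sources used here, so antisense and overlapping genes are uncertain. No 2 replicates held the same counts.

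Using edgeR 4.0.16 in R 4.3.3, filterByExpr retained 15517 of 32883 genes. These were scaled by TMM, and all libraries entered a single robust quasi-likelihood fit that estimated the 3 group means (6 residual degrees of freedom, median prior 4.07). Benjamini-Hochberg adjustment covered all genes tested in a comparison. The study's thresholds for DEGs were applied, namely an adjusted p under 0.05 together with more than a 1.5-fold change. Standard errors and 95% intervals come from this fit. The code was tested on simulated counts. Likeness used log2(CPM + 0.01). Libraries were grouped by their labelled treatment. Replicates were numbered here, with no pairing. The p-values set a group difference against the spread between these rats, moderated over genes, and do not cover the title code shared by the Control rats.

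The 9 genes, the other gene lists and the marker lists were chosen with earlier results of these data known. Named genes were the 9, every DEG of the other junction lists, the 2 genes of highest mean CPM in each of those lists, and the 3 genes most like the member of smallest p against Control. 1 gene that meets this rule is not reported here. Alternatives were DESeq2 1.42.0, RLE size factors, other filters, fits of 2 groups only, other fold thresholds, the library set as a covariate and each library left out in turn. A fit without the 3 libraries with fewer detected genes was added after seeing the data. Promoter windows and gene order are from RefSeq on GRCr8, which differs from the build of the counts, and were used for letters and neighbours only. Protein sequences and gene lengths were not used here.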

Additional observations from a re-analysis of the deposited data

How the results depend on the processing

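Of the 9 junction genes, 0 were DEGs at 3 weeks or between the IDPN groups in any alternative. At 7 weeks 1 was called by DESeq2 (Cldn11), 1 with no fold threshold (Ocln) and 0 to 1 with a library left out. Among the other junction genes, the count of 2 at 3 weeks became 6 with DESeq2, 0 with only the groups compared, 1 with a fold above 2, 4 with no fold threshold and 0 to 4 with a library left out. The count of 10 at 7 weeks became 5 with a fold above 2, 15 without the 3 libraries with fewer detected genes, and 4 to 11 with a library left out. Between the IDPN groups the count of 0 became 4 with DESeq2 and 0 to 4 with a library left out. Of the values of the 9 genes under the alternatives, 417 kept their direction and side of the threshold, 13 turned sign and 2 passed the threshold. For the other named genes, 807 kept both, 14 turned sign, 13 passed the threshold and 30 lost it. The cause was not tested.

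The largest value that changed sign was that of Marveld2 at 3 weeks (-0.50). With a library left out, values at 3 weeks ran from -0.36 to 0.02 (Cldn11), -0.32 to 0.13 (Cldn14) and -0.03 to 0.14 (Cldn7). At 7 weeks they ran from -0.24 to 0.30 (Cldn14), -0.30 to 0.02 (Marveld2) and -0.22 to 0.05 (Mpp5). Between the IDPN groups they ran from -0.20 to 0.45 (Cldn14), -0.05 to 0.05 (Ildr1), -0.13 to 0.07 (Cldn3), -0.21 to 0.02 (Cldn23) and -0.01 to 0.15 (Jup). Without the 3 libraries with fewer detected genes, signs turned for Marveld2 (0.09 at 3 weeks, 0.01 at 7 weeks, -0.08 between the IDPN groups), Jam2 (0.07) and Jam3 (0.03) at 3 weeks, and Ildr1 (0.06), Cldn3 (0.24), Cldn23 (0.02) and Jup (-0.07) between the IDPN groups. With the library set as a covariate, signs turned for Ildr1 (0.04), Cldn3 (0.17), Cldn8 (0.02) and Cldn23 (0.17) between the IDPN groups. No paired analysis was possible because the labels carry no replicate numbers, and the title codes are shared between groups by a single pair of IDPN rats. With 3 rats a group, differences smaller than the intervals given for each gene cannot be seen.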
